A study of Mus musculus with 12 samples.

Results

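The enzymes that build cholesterol and the proteins that switch their genes on were examined step by step in mouse alveolar macrophages. The set held 28 genes of the 26855 in the count table, taken by name: 19 enzymes in the order in which they act, 7 regulators of the sterol regulatory element-binding proteins (SREBPs), and 2 proteins that bind or move sterols. All 28 had a row and all 28 were among the 12625 genes with enough counts to be tested. Mice had received bleomycin, which damages lung epithelium and is followed by scarring, and bronchoalveolar lavage was taken at day 14. Lavage cells were split by filtration for size and then sorted on side scatter, a measure of granularity, and on BODIPY, a dye that stains neutral lipid. Smart-seq libraries were made from 3 populations titled UPBIG, UPSMALL and DOWN, with 4 libraries each. How these titles map onto the filter fractions and gates is not in the labels, nor are the strain, age or sex of the mice, and they leave unsaid whether the libraries of a group came from separate mice. The p-values therefore measure only the spread between these libraries, which may be technical. Every library came from bleomycin-treated mice, so an untreated level is not analysed here.

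Cholesterol synthesis starts from acetyl-CoA. The mevalonate enzymes make activated isoprene units, the isoprenoid enzymes join them into farnesyl pyrophosphate, the squalene enzymes join and close the chain into lanosterol, and the post-lanosterol enzymes trim lanosterol to cholesterol. When membranes of the endoplasmic reticulum are low in sterol, SCAP carries SREBP to the Golgi, where the site 1 and site 2 proteases (Mbtps1, Mbtps2) release the part that activates these genes. When sterol is plentiful, INSIG proteins hold SCAP and SREBP back. Alveolar macrophages clear lipid-rich surfactant, and so take up much sterol from outside.

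In the promoters of the enzymes the sequence CCAAT, the core of the binding site of the factor NF-Y that works beside SREBP-2, was frequent. RefSeq promoter windows (build GRCm38.p6, 250 bases before to 50 after the start site) were on hand for 24 of the 28 genes (all but Fdft1, Fdps, Sqle and Stard4), and both strands were searched. CCAAT, read as ATTGG on the other strand, occurred in 15 of the 16 enzymes with a window, Acat2 being the exception, and in 4 of 7 regulators (Insig1, Insig2, Srebf1 and Srebf2). It occurred in 43.1% of the 9350 tested genes with a window and in 41.1% of all 27025 genes with one. The longer motif TCACNCCAC, a form of the sterol regulatory element with N for any base, occurred only in Hmgcs1 among the 24, at chr13:119690214-119690222, against 1.33% of tested genes and 1.44% of all genes. GGGCGG, a core of GC boxes, occurred in 21 of 24 against 67.5% of tested genes and 38.2% of all, and CACGTG, an E-box, in 5 of 24 against 12.1% and 8.09%. Each motif was counted on its own, whether or not another overlapped it. The stretches below lie before the annotated start and show these motifs at different pathway steps, with matches to CCAAT and TCACNCCAC in capitals. They were picked after the expression values were seen: 4 enzymes that were low in UPBIG (Hmgcs1, Mvk, Lss, Sc5d), an enzyme that the edgeR fit did not call (Ebp), and the regulators Srebf2, which was low in UPBIG, and Scap, which was not called.
Hmgcs1: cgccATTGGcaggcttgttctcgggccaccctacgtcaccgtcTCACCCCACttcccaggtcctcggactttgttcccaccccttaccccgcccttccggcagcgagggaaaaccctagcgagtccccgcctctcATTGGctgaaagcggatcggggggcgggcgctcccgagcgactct
Mvk: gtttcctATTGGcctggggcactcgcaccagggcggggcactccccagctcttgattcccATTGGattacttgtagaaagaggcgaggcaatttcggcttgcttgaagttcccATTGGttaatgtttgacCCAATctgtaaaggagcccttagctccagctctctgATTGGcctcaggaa
Lss: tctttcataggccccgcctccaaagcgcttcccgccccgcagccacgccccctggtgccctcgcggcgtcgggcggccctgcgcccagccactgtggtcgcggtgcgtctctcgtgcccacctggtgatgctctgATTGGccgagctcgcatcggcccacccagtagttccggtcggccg
Sc5d: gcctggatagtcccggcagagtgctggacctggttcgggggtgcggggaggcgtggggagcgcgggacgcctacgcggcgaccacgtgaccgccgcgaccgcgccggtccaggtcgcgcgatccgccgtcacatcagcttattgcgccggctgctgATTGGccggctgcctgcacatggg
Ebp: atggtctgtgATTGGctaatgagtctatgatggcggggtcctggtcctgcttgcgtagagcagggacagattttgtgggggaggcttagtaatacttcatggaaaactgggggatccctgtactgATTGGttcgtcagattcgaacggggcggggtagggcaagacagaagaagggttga
Srebf2: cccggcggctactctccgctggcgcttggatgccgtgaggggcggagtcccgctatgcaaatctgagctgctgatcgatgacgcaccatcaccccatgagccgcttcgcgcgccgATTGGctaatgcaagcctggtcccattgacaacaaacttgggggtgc
Scap: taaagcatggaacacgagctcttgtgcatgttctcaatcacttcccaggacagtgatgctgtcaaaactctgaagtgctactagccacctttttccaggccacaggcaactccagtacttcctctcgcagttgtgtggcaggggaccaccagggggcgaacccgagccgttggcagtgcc
The positions are chr13:119690171-119690350 (plus strand) for Hmgcs1, chr5:114444089-114444268 (plus) for Mvk, chr10:76531408-76531587 (plus) for Lss, chr9:42264301-42264480 (minus) for Sc5d, chrX:8193513-8193692 (minus) for Ebp, chr15:82147019-82147180 (plus) for Srebf2 and chr9:110333108-110333287 (plus) for Scap. The stretch of Mvk held 5 CCAAT matches and that of Scap held none. The stretch of Ebp held 2. A match is a description of letters and does not show that a factor binds there.

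Sterol synthesis transcripts were low in UPBIG at nearly every step. Against DOWN, 16 of 19 enzymes were lower in UPBIG by edgeR's quasi-likelihood test (adjusted p below 0.05 over all tested genes), none was higher, and Ggps1, Ebp and Dhcr7 were not called. Over the whole set, 19 of 28 genes were lower and 1 was higher, where 8.48% of all tested genes were lower and 9.03% higher. Against UPSMALL, 19 of 28 were lower and 0 higher, 16 of them enzymes, where 2.49% of all tested genes were lower and 3.22% higher. The 2 comparisons share the UPBIG libraries and are not independent. The median log2 fold change of the 19 enzymes was -1.58 against DOWN and -1.71 against UPSMALL, and that of all tested genes was -0.03 in each. Between UPSMALL and DOWN no member passed the test in either direction, where 0.547% of all genes were lower and 0.594% higher in UPSMALL. So few genes were called there that a lack of calls among 28 does not set these members apart. At an unadjusted p under 0.05 there were 2 (Dhcr7 and Srebf1, both higher in UPSMALL), and DESeq2 and limma-voom called 0. A joint test for any difference among the 3 groups called 19 of 28 members and 13.8% of all genes. In sorted cells measured in bulk, fewer cells of a type and less RNA per cell cannot be told apart.

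**Figure D1:**
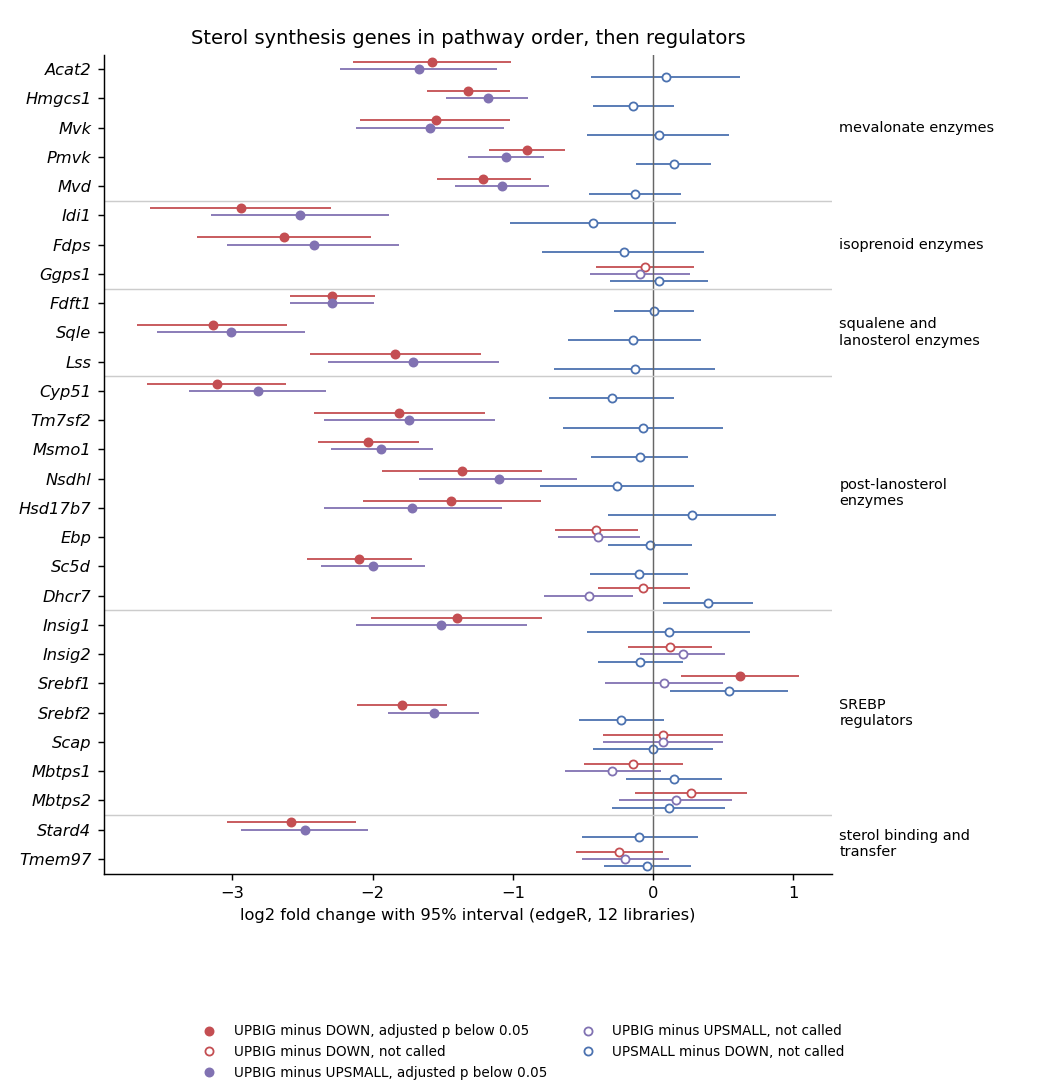
Fold changes along the pathway. Each row is a gene, in pathway order from top to bottom and then the regulators and sterol-binding proteins; the x axis is the log2 fold change with its 95% interval for UPBIG minus DOWN (red), UPBIG minus UPSMALL (purple) and UPSMALL minus DOWN (blue), filled where the adjusted p was below 0.05. Most red and purple points lie left of -1 at every enzyme step, and no blue point is filled.

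The 5 mevalonate enzymes were all lower in UPBIG, with the smallest median change of the 4 steps (-1.32 against DOWN on the log2 scale). Hmgcs1 makes HMG-CoA from acetoacetyl-CoA and acetyl-CoA. Its level in CPM, the library's counts scaled to a common total with edgeR's TMM factors, was 44.1, 43.4, 63.4 and 52.1 in the UPBIG libraries, 114.3, 97.5, 126.5 and 122.0 in UPSMALL, and 114.9, 107.5, 147.9 and 135.7 in DOWN. Every UPBIG library lay below every other library, and UPSMALL and DOWN overlapped. The log2 fold change was -1.32 (SE 0.14, adjusted p = 2.62e-06) against DOWN and -1.18 (SE 0.14, adjusted p = 2.30e-05) against UPSMALL. Acat2, the cytosolic thiolase that supplies acetoacetyl-CoA, ranged from 2.68 to 9.49 CPM in UPBIG, 16.8 to 23.9 in UPSMALL and 15.2 to 23.1 in DOWN (log2 fold change -1.58 against DOWN and -1.67 against UPSMALL). Mevalonate is then phosphorylated by Mvk, which fell from a mean of 12.8 ± 1.86 CPM (SD, n = 4) in DOWN to 4.36 ± 1.67 in UPBIG (log2 fold change -1.55), and by Pmvk, which fell from 63.1 ± 5.8 to 33.8 ± 5.99 (log2 fold change -0.90). Decarboxylation by Mvd gives isopentenyl pyrophosphate, and Mvd averaged 30.0 ± 4.82 CPM in UPBIG, 63.3 ± 13.6 in UPSMALL and 69.2 ± 9.79 in DOWN (log2 fold change -1.21 against DOWN). Adjusted p-values of these 4 genes against DOWN were between 2.97e-05 and 3.89e-04. UPBIG did not overlap UPSMALL or DOWN for any of the 5.

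Among the isoprenoid enzymes, Idi1 and Fdps, which lie on the trunk that leads to farnesyl pyrophosphate, were lower in UPBIG, and Ggps1, which branches from it, was not called. Idi1 interconverts the isoprene units. It measured 10.8, 9.09, 24.1 and 18.7 CPM in UPBIG, 90.7, 91.5, 102.2 and 74.3 in UPSMALL, and 127.6, 96.0, 166.1 and 92.7 in DOWN, so that the mean in UPBIG was 13.0% of that in DOWN (log2 fold change -2.94, SE 0.30, adjusted p = 2.42e-05). Against UPSMALL the log2 fold change of Idi1 was -2.52 (SE 0.29, adjusted p = 1.97e-04). Fdps, farnesyl pyrophosphate synthase, measured 17.3, 20.0, 36.0 and 20.1 CPM in UPBIG, 160.0, 119.1, 130.7 and 91.6 in UPSMALL, and 188.0, 125.0, 175.3 and 92.1 in DOWN. The spread of Fdps within UPSMALL and DOWN was wide, yet the lowest of those 8 libraries was above every UPBIG library (log2 fold change -2.63, SE 0.29, adjusted p = 4.34e-05 against DOWN, and -2.42, SE 0.28, adjusted p = 2.02e-04 against UPSMALL). Ggps1 extends farnesyl to geranylgeranyl pyrophosphate, which is used to prenylate proteins. It ranged from 16.0 to 22.7 CPM in UPBIG, 17.3 to 25.2 in UPSMALL and 17.7 to 24.6 in DOWN, and the groups overlapped. The interval of its UPBIG minus DOWN difference, -0.41 to 0.29 on the log2 scale, leaves out a change of the size seen for Idi1 or Fdps. Same-strand exons of the gene model Gm43738 cover 26.7% of the exon length of Fdps, so that its counts may be split between the 2.

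The squalene and lanosterol enzymes held the largest difference of the set. Sqle, squalene epoxidase, brings in the oxygen that marks the way to sterols and is a rate-limiting step. At chr15:59315077-59331192, it measured 3.3, 5.38, 10.5 and 5.93 CPM in UPBIG, 55.6, 42.7, 53.1 and 51.7 in UPSMALL, and 61.4, 48.3, 65.9 and 47.6 in DOWN. No UPBIG library reached a level near those of the other groups, and its mean was 11.3% of that in DOWN and 12.4% of that in UPSMALL. Its log2 fold change was -3.14 (SE 0.25, adjusted p = 2.04e-07) against DOWN and -3.01 (SE 0.25, adjusted p = 8.37e-07) against UPSMALL. Fdft1, squalene synthase, which commits farnesyl pyrophosphate to sterols, measured 15.2, 13.0, 15.8 and 11.7 CPM in UPBIG, 76.2, 67.1, 64.8 and 64.9 in UPSMALL, and 79.2, 62.4, 74.7 and 55.4 in DOWN. Its log2 fold change was -2.29 against each of the other groups (SE 0.14, adjusted p = 2.78e-09 against DOWN and 8.83e-09 against UPSMALL), the smallest adjusted p-values of the set in both comparisons. The gene Ctsb on the opposite strand shares 774 bases of exon with Fdft1, 18.3% of its exon length, and whether the counting used strand is not given in the sources used here. Ctsb averaged 6787 CPM in UPBIG and 3595 in DOWN and so went the opposite way (log2 fold change 0.92, adjusted p = 0.00326). Lss closes the ring to lanosterol and averaged 3.72 ± 1.73 CPM in UPBIG, 12.2 ± 1.47 in UPSMALL and 13.4 ± 3.26 in DOWN (log2 fold change -1.84 against DOWN, adjusted p = 1.96e-04).

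Of the 8 post-lanosterol enzymes, 6 were lower in UPBIG, while Ebp and Dhcr7 were not called. Cyp51, the lanosterol 14-demethylase at chr5:4081145-4104746, measured 5.36, 10.3, 16.9 and 11.3 CPM in UPBIG, 77.9, 78.7, 73.7 and 79.6 in UPSMALL, and 102.2, 82.1, 104.4 and 90.9 in DOWN. Its log2 fold change was -3.11 (SE 0.23, adjusted p = 1.25e-07) against DOWN and -2.82 (SE 0.23, adjusted p = 8.37e-07) against UPSMALL. Cyp51 was the only member with all UPSMALL libraries below all DOWN libraries, which held for 4.38% of all tested genes, and the difference there did not pass the test (log2 fold change -0.29, SE 0.21, adjusted p = 0.611). Removal of the methyl groups at carbon 4 uses Msmo1, the oxidase, then Nsdhl and Hsd17b7. Msmo1 fell from 142.5 ± 40.4 CPM in DOWN to 34.9 ± 3.39 in UPBIG (log2 fold change -2.03, adjusted p = 1.36e-07), and Nsdhl from 22.9 ± 5.42 to 8.89 ± 3.66 (log2 fold change -1.36, adjusted p = 0.00175). Against UPSMALL the call on Nsdhl (log2 fold change -1.10, adjusted p = 0.0194) was lost when UPSMALL replicate 2 was left out (adjusted p = 0.0542). Hsd17b7 measured 3.05, 4.48, 3.69 and 5.05 CPM in UPBIG, 13.2, 13.9, 12.9 and 13.5 in UPSMALL, and 13.7, 11.9, 14.5 and 3.96 in DOWN. The fourth DOWN library thus lay inside the UPBIG range, and the other 3 lay well above it (log2 fold change -1.44, SE 0.30, adjusted p = 0.0025 against DOWN).

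Tm7sf2, the reductase that removes the double bond left by Cyp51, averaged 4.24 ± 1.57 CPM in UPBIG, 14.3 ± 3.91 in UPSMALL and 15.0 ± 4.47 in DOWN (log2 fold change -1.81 against DOWN and -1.74 against UPSMALL, adjusted p = 2.20e-04 and 8.51e-04). Sc5d, the desaturase near the end of the pathway, averaged 10.8 ± 1.37, 43.1 ± 6.92 and 46.1 ± 10.6 CPM in the same order (log2 fold change -2.10 against DOWN, adjusted p = 1.30e-07; against UPSMALL, adjusted p = 6.88e-07). Ebp, the isomerase that moves the ring double bond, measured 72.5, 66.9, 63.2 and 71.5 CPM in UPBIG, 105.5, 97.6, 91.4 and 63.6 in UPSMALL, and 100.1, 83.6, 101.6 and 77.8 in DOWN. Its UPBIG libraries lay below all DOWN libraries but overlapped UPSMALL through the fourth UPSMALL library. The log2 fold change of Ebp was -0.41 against DOWN (adjusted p = 0.0551) and -0.39 against UPSMALL (adjusted p = 0.132), and without UPSMALL replicate 4 it passed the test in both (-0.39, adjusted p = 0.0178, and -0.51, adjusted p = 0.0149). Against DOWN, Ebp also passed without DOWN replicate 4 (adjusted p = 0.0427), with limma-voom (0.0272), with no low-count filter (0.0421), with a filter of 5 CPM in 4 libraries (0.0418), with only the 8 libraries compared (0.0257) and with the replicate number as a block (0.0315). Against UPSMALL it passed with limma-voom (-0.45, adjusted p = 0.0335). The call on Ebp therefore depended on the fit. Dhcr7 makes cholesterol from 7-dehydrocholesterol in the final step. It measured 14.4, 13.3, 13.9 and 11.5 CPM in UPBIG, 20.7, 16.1, 18.4 and 17.9 in UPSMALL, and 14.5, 13.6, 14.2 and 13.3 in DOWN. For Dhcr7 the UPSMALL libraries were the highest, above all DOWN and all UPBIG libraries, a pattern that no other enzyme had with both separations. All UPSMALL libraries lay above all DOWN libraries for 3.87% of tested genes. Neither difference passed the test (UPSMALL minus DOWN 0.39 on the log2 scale, SE 0.15, adjusted p = 0.259, and UPBIG minus UPSMALL -0.46, SE 0.15, adjusted p = 0.0947).

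**Figure D2:**
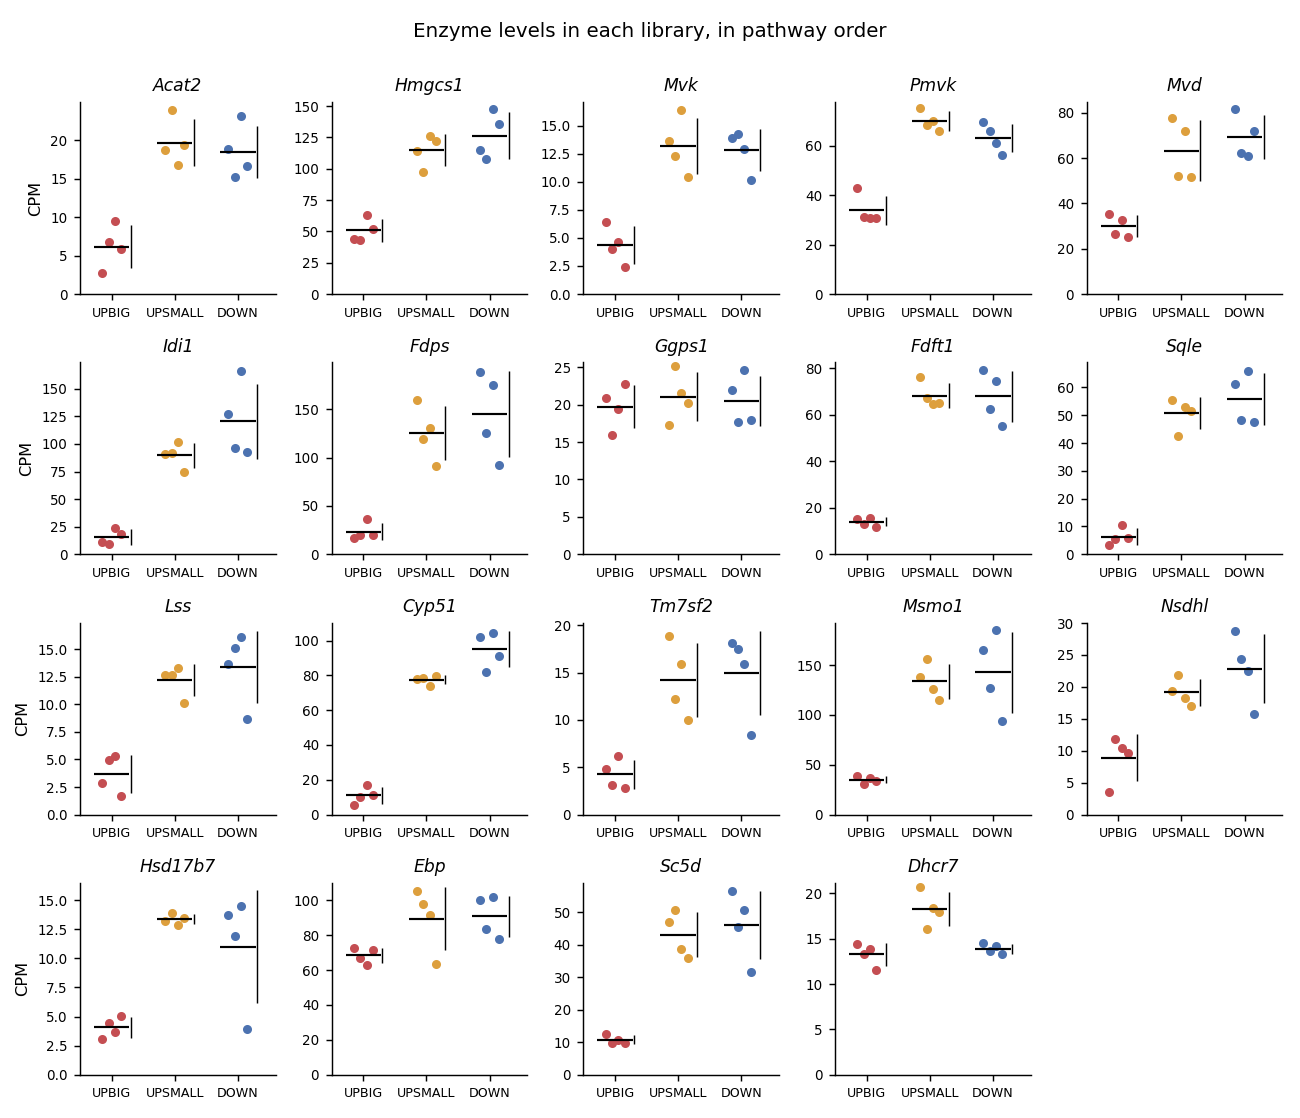
Enzyme levels by library. Each panel is an enzyme in pathway order; the y axis is CPM from 0, points are the 4 libraries of a group in the order 1 to 4 from left to right, horizontal bars are means and vertical bars are 1 SD to each side. UPBIG points lie below those of the other groups in most panels, while Ggps1 overlaps in all 3 groups and Dhcr7 is highest in UPSMALL.

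By overlap of libraries, all 4 UPBIG libraries were below all 4 DOWN libraries for 19 members, 16 of them enzymes, where 10.3% of all tested genes had that pattern. They were below all UPSMALL libraries for 20 members, 17 of them enzymes, where 5.35% of all genes did. The summed level of the 19 enzymes was 330.3 to 413.8 CPM in UPBIG, 934.1 to 1152 in UPSMALL and 940.9 to 1337 in DOWN. The DOWN libraries differed among themselves: the fourth was the lowest of its group for 14 of 19 enzymes and the third the highest for 10. In UPSMALL the fourth library was the lowest for 11 of 19. With the fourth libraries of UPSMALL and DOWN both left out, a choice made after seeing these values, 20 members were lower and 1 higher in UPBIG than in DOWN, and 20 were lower than in UPSMALL.

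The order of the enzymes changed with the group. Per kilobase of the principal transcript, Fdps was highest in DOWN (a mean level of 105.0 CPM per kilobase) and in UPSMALL (90.7), followed by Msmo1 (69.7 and 65.3) and Pmvk (52.9 and 58.5). In UPBIG, Fdps stood at 16.9 CPM per kilobase, near Msmo1 and Mvd (both 17.1), and Ebp was highest at 39.3, followed by Pmvk at 28.3. Ebp itself had 51.4 in UPSMALL and 52.1 in DOWN, a difference that was not called.

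The 7 regulators did not move as a block. By edgeR, Srebf2 and Insig1 were lower in UPBIG in each comparison, Srebf1 was higher than in DOWN, and 4 (Insig2, Scap, Mbtps1 and Mbtps2) were not called in either. Srebf2 encodes SREBP-2, the main activator of the cholesterol genes, and lies at chr15:82147181-82205379. It measured 8.79, 8.07, 10.9 and 8.8 CPM in UPBIG, 32.1, 23.9, 26.6 and 25.6 in UPSMALL, and 32.1, 27.4, 34.1 and 32.9 in DOWN. No UPBIG library came near the others, and UPSMALL overlapped DOWN. The log2 fold change of Srebf2 was -1.79 (SE 0.15, adjusted p = 1.40e-07) against DOWN and -1.56 (SE 0.15, adjusted p = 1.92e-06) against UPSMALL, and its mean in UPBIG was 28.9% of that in DOWN.

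Insig1, the retention factor whose own gene is an SREBP target, lies at chr5:28071363-28078662. It measured 7.79, 2.15, 6.09 and 3.61 CPM in UPBIG, 13.5, 12.9, 13.8 and 15.7 in UPSMALL, and 12.9, 13.3, 16.2 and 9.43 in DOWN. The UPBIG values varied more in proportion than those of the other groups but stayed below all of them. For Insig1 the log2 fold change was -1.40 (SE 0.29, adjusted p = 0.00228) against DOWN and -1.51 (SE 0.29, adjusted p = 0.00301) against UPSMALL. Insig2, its paralog, which is not driven by SREBP in the same manner, ranged from 24.3 to 30.3 CPM in UPBIG, 21.0 to 26.9 in UPSMALL and 20.8 to 29.0 in DOWN, with overlap between all groups (log2 fold change 0.12 against DOWN, 95% interval -0.18 to 0.42). The count of Insig1 over that of Insig2 within a library, which no scaling touches, was 0.0804 to 0.257 in UPBIG, 0.502 to 0.702 in UPSMALL and 0.362 to 0.78 in DOWN.

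Srebf1 encodes SREBP-1, which favours fatty acid genes and is itself a target of the liver X receptors. It measured 22.9, 24.3, 20.5 and 26.4 CPM in UPBIG, 30.5, 12.8, 22.9 and 22.7 in UPSMALL, and 16.5, 13.7, 14.4 and 16.7 in DOWN. All UPBIG libraries lay above all DOWN libraries, as for 11.0% of tested genes, and UPSMALL spanned both groups. The log2 fold change against DOWN was 0.62 (SE 0.20, adjusted p = 0.0401), and the call was lost with library totals as the only scaling (0.29, adjusted p = 0.317) and when any of UPBIG replicates 1, 2 and 4 or DOWN replicates 1, 2 and 3 was left out (adjusted p from 0.056 to 0.101). The UPSMALL minus DOWN difference of Srebf1, 0.54 (SE 0.20, adjusted p = 0.237), passed the test only without UPSMALL replicate 2 (0.73, adjusted p = 0.0487). The count of Srebf2 over that of Srebf1 was 0.333 to 0.531 in UPBIG, 1.05 to 1.87 in UPSMALL and 1.95 to 2.38 in DOWN. The 3 groups did not overlap in this ratio, and UPSMALL lay between the others.

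The escort and protease genes gave values near 0. Scap averaged 15.7 ± 2.49 CPM in UPBIG, 15.0 ± 2.16 in UPSMALL and 14.9 ± 4.31 in DOWN (log2 fold change 0.07 against each, 95% interval -0.36 to 0.50). Mbtps1 averaged 15.0 ± 0.811, 18.3 ± 2.48 and 16.5 ± 2.89 CPM in the same order (log2 fold change -0.14 against DOWN and -0.29 against UPSMALL), and Mbtps2 19.9 ± 4.55, 17.8 ± 2.49 and 16.6 ± 3.09 (0.27 and 0.16). Exons of Yy2 on the same strand cover 28.4% of the exon length of Mbtps2. The summed level of the 7 regulators was 113.4 to 117.7 CPM in UPBIG, 122 to 146.2 in UPSMALL and 126.4 to 143.8 in DOWN.

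**Figure D3:**
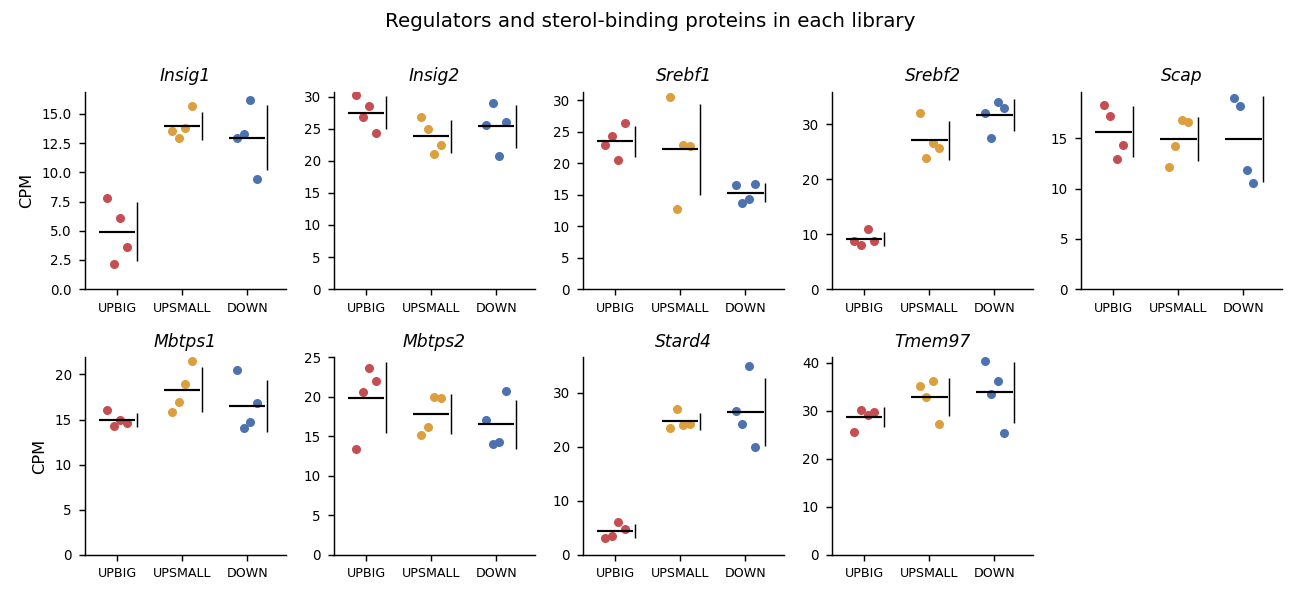
Regulators and sterol-binding proteins by library. Panels are the 7 SREBP regulators and then Stard4 and Tmem97; the y axis is CPM from 0, points are libraries, horizontal bars are means and vertical bars are 1 SD to each side. Insig1, Srebf2 and Stard4 are low in all 4 UPBIG libraries, Srebf1 has its lowest mean in DOWN, and the other panels overlap.

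Of the 2 sterol-handling proteins, Stard4, a soluble carrier that moves cholesterol between membranes, was low in UPBIG. It measured 3.12, 3.53, 6.15 and 4.84 CPM in UPBIG, 23.4, 27.0, 24.0 and 24.2 in UPSMALL, and 26.6, 24.1, 34.9 and 20.0 in DOWN. The lowest library outside UPBIG stood at 20.0 CPM and the highest within it at 6.15. The log2 fold change was -2.58 (SE 0.22, adjusted p = 1.24e-07) against DOWN and -2.48 (SE 0.22, adjusted p = 6.04e-07) against UPSMALL. Tmem97, the sigma-2 receptor, which binds sterols in the endoplasmic reticulum, ranged from 25.6 to 30.1 CPM in UPBIG, 27.3 to 36.3 in UPSMALL and 25.4 to 40.4 in DOWN, and was not called (log2 fold change -0.24 against DOWN, 95% interval -0.55 to 0.07).

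UPSMALL lay close to DOWN for most of the genes that were low in UPBIG. Among the 19 members that were lower in UPBIG than in DOWN, the UPSMALL level stood at a median of 95.4% of the way from UPBIG to DOWN on the log2 scale, from 81.1% for Nsdhl to 119.4% for Hsd17b7. The distance of UPSMALL from the midpoint of the other groups was tested for every gene. It was called above the midpoint for 8 of 28 members, where 0.158% of all tested genes were above and 0.0871% below, that is 20 and 11 genes. The number of members depended on the fit: it was 14 with library totals alone, DESeq2 or limma-voom, 15 with the replicate number as a block and 18 with no low-count filter, where the calls over all genes, in both directions, went from 31 to 66, 129, 50, 103 and 241 in that order. The 8 in the edgeR fit were Sqle (1.44 above on the log2 scale, SE 0.19, adjusted p = 0.00251), Cyp51 (1.26, adjusted p = 0.00309), Stard4 (1.19, adjusted p = 0.00251), Fdft1 (1.15, adjusted p = 6.31e-05), Sc5d (0.95, adjusted p = 0.00309), Msmo1 (0.92, adjusted p = 0.00309), Srebf2 (0.67, adjusted p = 0.021) and Pmvk (0.60, adjusted p = 0.0145). In all, 25 of 28 members had a value above the midpoint, and Insig2, Scap and Mbtps2 were below it by values that were not called. The median distance was 0.73 on the log2 scale for the 28 members and 0.01 for all tested genes. For a gene with UPSMALL near DOWN, this distance grows with the difference between UPBIG and DOWN. UPBIG was called lower than DOWN for 19 of 28 members and 8.48% of all tested genes, so these shares and medians partly restate that difference. The position of UPSMALL was not counted for the other genes lower in UPBIG, so closeness to DOWN does not set the members apart from them. The 95% interval of UPSMALL minus DOWN lay within a 2-fold change in either direction for 27 of 28 members, and within 1.5-fold for 16. Idi1 was the exception to the first bound, with an interval from -1.02 to 0.16. The share of all tested genes within these bounds was not counted, so the bounds do not set the members apart from other genes.

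**Figure D4:**
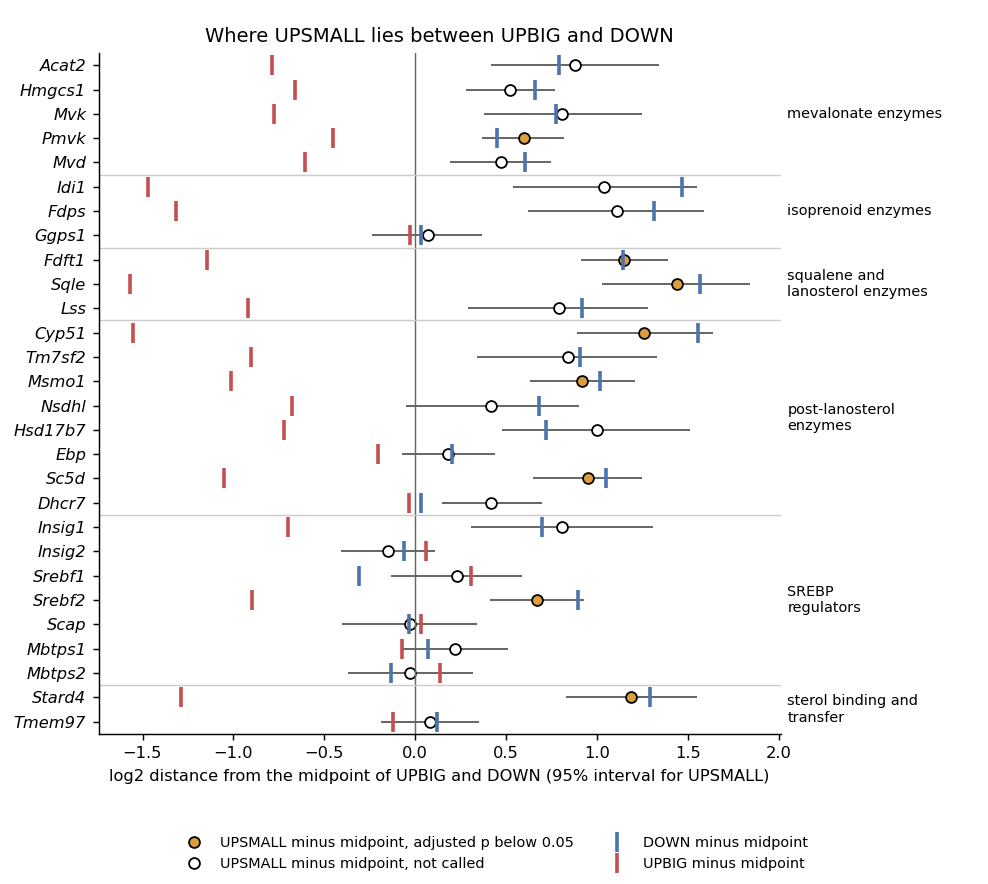
Position of UPSMALL. The x axis is the log2 distance from the midpoint of UPBIG and DOWN; circles are UPSMALL with its 95% interval, filled where the adjusted p was below 0.05, and red and blue ticks mark UPBIG and DOWN. For 8 genes the filled circle lies off the midpoint and near the blue tick of DOWN, and for Ggps1, Insig2, Scap and Tmem97 all marks lie near 0.

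Genes that act beside the members were taken from lists chosen with earlier results of these data known. The counts called in each list stand beside these shares of all tested genes. In UPBIG, 8.48% were lower and 9.03% higher than in DOWN, and 2.49% were lower and 3.22% higher than in UPSMALL. Among 7 tested paralogs and alternative steps, 3 were lower and 1 was higher in UPBIG than in DOWN. Lbr, the lamin B receptor, which carries the same sterol reductase activity as Tm7sf2, averaged 1.58 ± 0.857 CPM in UPBIG, 5.41 ± 0.544 in UPSMALL and 11.7 ± 3.21 in DOWN. It was lower in UPBIG than in DOWN (log2 fold change -2.88, adjusted p = 1.15e-05) and than in UPSMALL (-1.77, adjusted p = 0.00345). Its UPSMALL minus DOWN value was -1.11 (adjusted p = 0.0991 by edgeR), where Tm7sf2 had -0.07. In this list edgeR called 0 genes lower in UPSMALL than in DOWN, and 1 had an unadjusted p under 0.05. DESeq2 and limma-voom each called 1 gene of the list in that direction. Aacs, which activates acetoacetate for sterol synthesis, was lower in UPBIG too (-1.32 against DOWN and -1.41 against UPSMALL, adjusted p = 4.60e-04 and 6.21e-04). Ebpl, a relative of Ebp, was higher than in DOWN (0.54, adjusted p = 0.00949), but only 0.21 and not called with library totals alone. Among 8 electron donors and scaffold proteins, Erg28, the scaffold that holds the carbon 4 demethylation enzymes together, was lower in UPBIG (log2 fold change -1.02 against DOWN and -1.04 against UPSMALL, adjusted p = 6.05e-05 and 1.23e-04). Cyb5b was lower against DOWN (-0.36, adjusted p = 0.0498), a call lost with DESeq2-style size factors (-0.35, adjusted p = 0.0597), and Cyb5r3 and Cyb5a were higher (0.69 and 0.32, adjusted p = 0.00934 and 0.0452), both without a call under library totals alone, where Cyb5a stood at 0.00.

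The branch from isoprenoids to protein prenylation, dolichol and ubiquinone gave no call in any of the 3 comparisons among 13 tested genes by edgeR. At an unadjusted p under 0.05, 3 genes passed in UPBIG against DOWN, 1 in UPBIG against UPSMALL and 2 in UPSMALL against DOWN, and DESeq2 and limma-voom each called 1, in UPBIG against UPSMALL. Among 22 genes of SREBP transport and degradation, Rnf139, a ubiquitin ligase known as TRC8, was lower in UPBIG than in DOWN (log2 fold change -0.97, adjusted p = 0.00298). In the same list 5 were higher, among them Ube2g2 (0.67), Sec23b (0.57), Vcp (0.37) and Sar1a (0.30). None of those 5 kept its call with library totals alone, and Sar1a then stood at -0.02. No gene of that list was called between UPBIG and UPSMALL, where 3 had an unadjusted p under 0.05 and DESeq2 and limma-voom called 0.

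Neighbouring lipid pathways moved in part the other way. Of 15 tested fatty acid genes that SREBP-1 drives, 5 were lower in UPBIG than in DOWN, among them Fasn (log2 fold change -0.73, adjusted p = 0.0074) and Acss2 (-2.10, adjusted p = 0.00614), with Fads1 (-0.55), Acly (-0.42) and Acsl3 (-1.24). Scd1, the stearoyl-CoA desaturase, was higher by 5.52 (adjusted p = 2.15e-13) and Lpin1 by 0.45 (adjusted p = 0.0361; 0.13 and not called with library totals alone). Of 7 tested genes of oxysterols and sterol esters, Soat2 was lower (-4.18, from a mean of 0.95 CPM in DOWN) and Soat1, Nceh1 and Lipa were higher (0.51, 0.57 and 0.88), Soat1 and Nceh1 without a call under library totals alone. Of 11 other sterol carriers, Gramd1b (1.29), Stard5 (0.92) and Npc2 (0.47) were higher than in DOWN and none was lower, where 1 had an unadjusted p under 0.05 in that direction and DESeq2 and limma-voom called 0. Npc2 was not called with library totals alone. The cholesterol exporters Abca1 (2.59) and Abcg1 (1.89) were higher in UPBIG than in DOWN. In that list 6 of 10 genes were called higher, where 9.03% of all tested genes were.

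By likeness to the mean profile of the 19 enzymes over the 12 libraries, the closest of 6978 other genes with a mean log2 CPM of at least 3 included Pcyt2 (Pearson r = 0.965), Plp2 (0.965), Mmp14 (0.96), Eps8 (0.949), Nfe2 (0.946), Erg28 (0.94), Rbpj (0.939) and Cx3cr1 (0.939). These values are a description, since the libraries share the group structure. Cx3cr1 differed more than any enzyme between UPBIG and DOWN (-4.75).

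The libraries held 17109669 to 23282621 counts. The scaling matters for the uncalled genes: when libraries were scaled by their totals only, the median over all genes between UPBIG and DOWN moved from -0.03 to -0.36 and that against UPSMALL from -0.03 to -0.31, and the calls against DOWN went from 1140 higher and 1070 lower to 518 and 3237. Against UPSMALL they went from 406 higher and 314 lower to 189 and 1433. The median of the 7 regulators against DOWN then changed sign, from 0.07 to -0.24, close to the shift of all genes, while that of the enzymes went from -1.58 to -1.89. Ebp (-0.72, adjusted p = 3.07e-04) and Tmem97 (-0.56, adjusted p = 0.00665) were then called lower against DOWN, and Ebp, Dhcr7, Tmem97 and Mbtps1 against UPSMALL.

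Markers of other cells moved with the groups as well. All 10 macrophage markers were detected in each group, with summed levels of 121519 to 126565 CPM in UPBIG, 61166 to 120966 in UPSMALL and 79068 to 112601 in DOWN. The 10 T and NK cell markers summed to 4.17 to 16.9 CPM in UPBIG, 1.87 to 8.15 in UPSMALL and 28.5 to 99.5 in DOWN, and Ncr1 was at 0 in UPBIG and UPSMALL. The 7 dendritic cell markers summed to 2.55 to 6.21, 4.15 to 13.6 and 30.4 to 70.9 CPM in the same order, with Siglech at 0 in UPSMALL. T, NK and dendritic cell markers summed to less in UPSMALL than in DOWN. Whether RNA of such cells had a part in the enzyme levels of any group was not tested. The 8 neutrophil markers summed to 371.2 to 412.8, 181.6 to 236.1 and 155.2 to 197.4 CPM, with Ly6g, Camp and Ngp at 0 in UPBIG and UPSMALL and Ly6g and Ngp at 0 in DOWN. The 8 epithelial markers summed to 18.6 to 231.5, 18.4 to 63.0 and 13.7 to 27.6 CPM, with Sftpb at 0 in DOWN. The 6 B cell markers summed to at most 27.4 CPM and the 5 erythroid markers to at most 0.26 CPM. For neutrophil and epithelial markers the sums hide markers that differ in direction. Of 4 tested neutrophil markers, 1 was higher and 1 lower in UPBIG than in DOWN by edgeR. Of 7 tested epithelial markers, 1 was higher and 1 lower. The calls of other lists between UPBIG and DOWN went in 1 direction. Of 10 tested macrophage markers, 5 were higher and 0 lower in UPBIG. Of 9 tested T and NK cell markers, 7 were lower and 0 higher, and of 6 tested dendritic cell markers, 4 were lower and 0 higher. Of 4 tested B cell markers, 0 were called. Among all tested genes 9.03% were higher and 8.48% lower. Whether neutrophil or epithelial RNA had a part in the low enzyme levels of UPBIG was not tested.

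**Figure D5:**
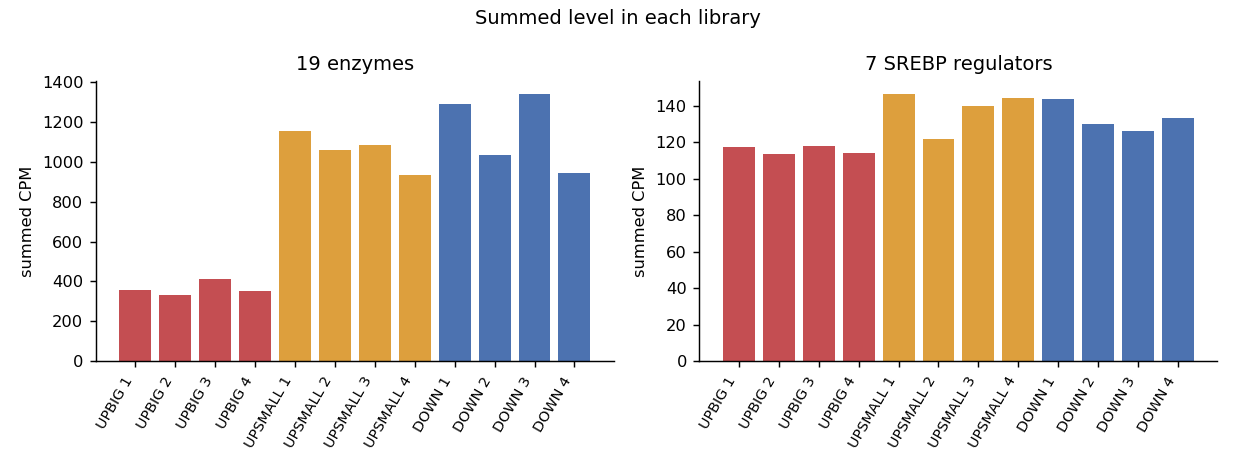
Summed levels by library. Bars show the summed CPM of the 19 enzymes (left) and of the 7 SREBP regulators (right) in each of the 12 libraries, on axes that start at 0 and differ in scale. The enzymes reach 330.3 to 413.8 CPM in UPBIG against at least 934.1 in every other library. The summed regulators reach 113.4 to 117.7 CPM in UPBIG and 122 to 146.2 in the other libraries. This sum is lowest in UPBIG, but the regulators did not fall as a block. Only Srebf2 and Insig1 were called lower there, and the median log2 fold change of the 7 against DOWN was 0.07.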

How the data were processed

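Smart-seq libraries of 12 sorted macrophage samples (3 groups of 4, grouped by their titles) were analysed from the deposited table of expected counts per Ensembl gene. STAR, RSEM and the build mm10 are named in the submitters' processing notes, with no version or role given there. Of all values, 13.8% were not whole, and expected counts were rounded to whole numbers. Symbols matched 26808 of 26855 identifiers. Coordinates and exon lengths came from GENCODE M21. Genes passing edgeR's filterByExpr (12625) were fitted over all 12 libraries with edgeR 4.0.16 (R 4.3.3; TMM scaling, robust quasi-likelihood, Benjamini-Hochberg over all tested genes, threshold 0.05). Levels are TMM-scaled CPM. Intervals for fold changes are 95% from the fitted standard error. DESeq2 1.42.0, limma 3.58.1 with voom quality weights, other scalings and filters, a replicate block, a minimum fold of 1.5 and leaving out each library were alternatives. The fit was tested on simulated data. The labels do not say that equal replicate numbers mark a shared mouse or day, and the edgeR fit had no block. Deviations from the group means correlated by over 0.1 in 9 of 12 same-numbered pairs (median 0.205, from -0.069 to 0.366). They did so in 4 of 36 other pairs (median -0.058, from -0.296 to 0.378). The highest value of all, 0.378, joined UPBIG 4 to UPSMALL 3, whose numbers differ. UPBIG 3 and UPSMALL 4 were at 0.27, while the same-numbered pairs of UPBIG and UPSMALL were at -0.069 for number 3 and -0.009 for number 4. Between UPSMALL and DOWN, number 4 was at 0.202 and number 3 at -0.019. The replicate block joins equal numbers only. Whether another pairing holds for these libraries was not tested. Between UPBIG and DOWN all 4 same-numbered pairs were over 0.1 (0.138 to 0.276), so there the data point to pairing. In the comparisons with UPSMALL not all were. Values with the block are given where they change a call. Members and lists were chosen with earlier results of these data known. All members are named. From the other lists, up to 4 called genes of smallest p are named, plus every called gene where 5 or fewer were called. Likeness names the 10 closest genes. Some genes that these rules name are not reported here. Depth was 17109669 to 23282621 counts per library. Counts of amplified cDNA are not independent molecules, so low levels carry more error than counting gives.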

Additional observations from a re-analysis of the deposited data

Results flagged for a closer look

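In 2 of 84 groups of 4 libraries (2.38%), the highest or lowest library stood apart from the other 3 by more than Dixon's 95% critical value for the gap over the range, where chance gives about 1 in 20. Pmvk in UPBIG was at 42.8 CPM in the first library and at 30.7 to 31.0 in the others (ratio 0.972). Fdps in UPBIG was at 36.0 CPM in the third library and at 17.3 to 20.1 in the others (ratio 0.850). In each case the highest UPBIG library remained below every UPSMALL and DOWN library.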

How the results depend on the processing

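Counts of members lower in UPBIG kept their size: 18 to 21 against DOWN and 17 to 23 against UPSMALL over all alternatives run, and no member's fold change that was called changed sign. The 1 member higher in UPBIG than in DOWN (Srebf1) became 0 with library totals alone and with a minimum fold of 1.5, and 0 to 1 over the single-library omissions. Leaving out single libraries gave 0 to 1 members higher in UPSMALL than in DOWN, the 1 being Srebf1 without UPSMALL replicate 2. The count of members off the midpoint went from 8 to 14 with library totals alone, 14 with DESeq2, 14 with limma-voom and 18 with no low-count filter, and from 6 to 12 over single omissions. The matching counts over all genes, 31 in the edgeR fit, were 66, 129, 50 and 241. Without DOWN replicate 4 it was 60. The cause was not tested. With the replicate block, for which the correlations between UPBIG and DOWN speak and the labels give no ground, 15 members and 103 genes were off the midpoint, 20 members were lower in UPBIG than in DOWN (Ebp being gained), and the other counts of members were the same. Between UPSMALL and DOWN, 144 genes were called by edgeR, 275 with the block, 393 by DESeq2, 226 by limma-voom and 460 with no filter, while single omissions gave as few as 58. With a minimum fold of 1.5, the calls over all genes fell from 2210 to 597, 720 to 143 and 144 to 25 in the 3 comparisons, and Pmvk (against DOWN), Mvd and Nsdhl (both against UPSMALL) were no longer called. The fit of the 8 libraries compared and the minimum fold give no joint or midpoint test. Leaving out the fourth UPSMALL and DOWN libraries together was added after seeing the data.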
